A study of Caenorhabditis elegans with 2 samples.

Results

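In Caenorhabditis elegans the cohesin subunit SMC-1 is called HIM-1. Chromatin immunoprecipitation followed by sequencing was used to map where a GFP-tagged HIM-1 sat on the chromosomes of young adults. The peaks described here had their summit at the 3' end of a protein-coding gene that did not face a close convergent neighbour. There were 246 such summits among the 2051 of the authors' optimal list (11.99%, 95% Clopper-Pearson interval 10.6 to 13.5%), at the 3' ends of 229 genes. A summit belonged if it lay within 500 bp of a protein-coding 3' end, more than 500 bp from any protein-coding 5' end and more than 250 bp from tRNA, rRNA, snRNA and snoRNA genes. Summits between the facing 3' ends of 2 neighbouring genes no more than 1000 bp apart, or within 500 bp of those ends, were left out. Facing ends that overlapped counted as such a pair. Within the optimal list the choice used positions alone, with no signal value. That list had itself passed the authors' cut, and its lowest signal was 60.8.

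The samples were whole hermaphrodites of strain YL577, in which the C-terminus of HIM-1 is fused to GFP and FLAG, collected 47 hours after starved first-stage larvae were released from synchronization. Both libraries, biological replicates 1 and 2, belong to this 1 group; all animals carried the tag. The immunoprecipitation used an antibody against GFP per the labels' description, while the antibody field names him-1. No control library was analysed here, the labels do not name the promoter that drives the tagged gene, and whole animals mix germline and somatic nuclei. The labels do not say that the replicates were grown as separate cultures, so the spread between them may be technical. In each replicate's own list, the 2051 peaks with the highest signal held 256 such summits in replicate 1 and 224 in replicate 2, a share of 11.7% ± 1.10 (SD, n = 2). Read depth is unknown, and intervals cover counting error over summits or gene ends only.

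Cohesin is a ring of SMC and kleisin subunits that holds sister chromatids together and also forms loops within a chromosome. In budding yeast, rings accumulate between genes that converge, and transcription can move them along a gene towards its 3' end. A 3' end without a facing neighbour nearby is therefore a place where the end of 1 transcribed gene can be looked at apart from the meeting of 2.

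The sequence around some summits, picked for holding a pattern counted below and not by signal alone, is shown first. It is 121 bases centred on the summit, read 5' to 3' on the strand of the gene, from WBcel235 (ce11). The picks are not typical: GTTCGANNC stood at 4 of the 25 strongest summits and at 16 of all 246. The first 5 hold the pattern GTTCGANNC, the core of the B box through which tRNA genes recruit TFIIIC, in capitals on whichever strand it was found. They lie past the 3' ends of dpy-21 (minus strand, chrV:17935997-17936117), which encodes a histone demethylase of the dosage compensation machinery, nipa-1 (minus strand, chrIII:3112144-3112264), alh-3 (plus strand, chrIV:11026050-11026170), which encodes an aldehyde dehydrogenase, ubc-1 (plus strand, chrIV:4106492-4106612), a ubiquitin-conjugating enzyme gene, and rog-1 (minus strand, chrII:1367966-1368086).
dpy-21: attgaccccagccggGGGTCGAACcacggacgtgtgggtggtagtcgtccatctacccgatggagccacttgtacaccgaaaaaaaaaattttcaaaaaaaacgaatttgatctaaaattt
nipa-1: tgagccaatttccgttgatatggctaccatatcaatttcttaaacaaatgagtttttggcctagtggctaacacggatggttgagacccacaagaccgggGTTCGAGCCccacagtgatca
alh-3: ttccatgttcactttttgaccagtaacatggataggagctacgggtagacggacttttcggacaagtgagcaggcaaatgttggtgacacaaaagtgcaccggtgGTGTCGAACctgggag
ubc-1: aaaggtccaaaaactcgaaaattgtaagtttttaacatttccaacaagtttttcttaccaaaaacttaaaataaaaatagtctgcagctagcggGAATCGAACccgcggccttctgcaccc
rog-1: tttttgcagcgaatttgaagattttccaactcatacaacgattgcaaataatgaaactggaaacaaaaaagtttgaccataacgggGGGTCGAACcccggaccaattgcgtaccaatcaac

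The next 4 lack that pattern within 100 bp of the summit and show other patterns counted below, in capitals: CCGCCC or CCCGCC past tra-1 (minus strand, chrIII:11170649-11170769), the Gli-family regulator of sex determination, and past snrp-200 (minus strand, chrII:12726784-12726904), a helicase of the spliceosome; a run of 8 or more T past phf-15 (plus strand, chrIII:3331887-3332007); and CACGTG past lit-1 (plus strand, chrIII:13724458-13724578), which encodes a Nemo-like kinase of the Wnt pathway. In tra-1 the copies stand in a repeated stretch.
tra-1: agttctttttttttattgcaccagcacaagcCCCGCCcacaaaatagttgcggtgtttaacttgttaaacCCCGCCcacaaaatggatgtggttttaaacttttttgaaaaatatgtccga
snrp-200: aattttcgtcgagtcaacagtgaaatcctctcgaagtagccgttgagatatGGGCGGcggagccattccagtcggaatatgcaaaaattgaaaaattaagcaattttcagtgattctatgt
phf-15: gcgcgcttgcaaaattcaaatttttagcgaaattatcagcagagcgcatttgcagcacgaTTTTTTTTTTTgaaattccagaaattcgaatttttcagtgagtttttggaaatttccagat
lit-1: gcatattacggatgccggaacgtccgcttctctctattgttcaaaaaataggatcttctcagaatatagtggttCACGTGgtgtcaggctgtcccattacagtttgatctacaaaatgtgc

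The summits lay past the genes, not inside them. Of the 246, 234 (95.1%, interval 91.6 to 97.5%) were downstream of the 3' end, and the replicates' own lists gave 94.9% and 95.5%. The median position was 237.5 bp past the end, with quartiles of 154.25 and 346 bp; replicate 1 gave 238.5 bp and replicate 2 gave 245 bp. The sequence where a summit could meet the rule, called open here, came to 3.87 Mb downstream of the ends and 4.58 Mb upstream. Per Mb of that open sequence there were 60.5 summits downstream and 2.62 upstream. The first 100 bp past the end held 24.3 per Mb. The bin from 100 to 200 bp held 76.2, and the bin from 200 to 300 bp held 86.8. The bin from 300 to 400 bp held 74.999, and the bin from 400 to 500 bp held 41.3 per Mb. Replicate 1's own list was highest from 200 to 300 bp, at 85.47 per Mb. Replicate 2's own list was highest from 300 to 400 bp, at 79.02 per Mb. The last 100 bp of the gene held 7.06 per Mb. Across the genome the optimal list held 20.5 summits per Mb.

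**Figure D1:**
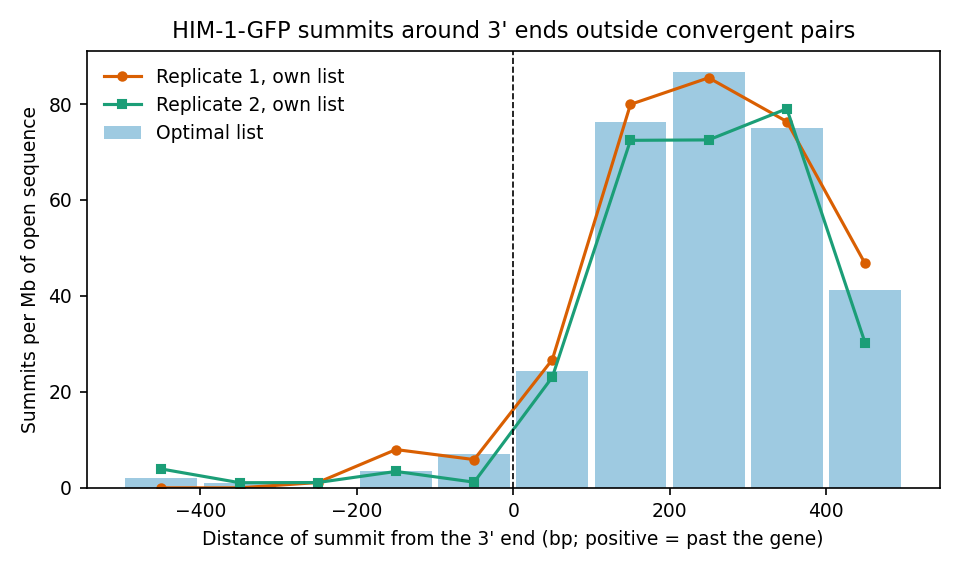
Summits per Mb of open sequence (y axis) in 100 bp bins of distance from the 3' end (x axis, positive past the gene); bars are the optimal list and points each replicate's own list of the same size. The bars reach 74.999 to 86.8 per Mb in the bins between 100 and 400 bp past the end. They do not exceed 7.06 per Mb before it.

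By annotation, 214 of the 246 summits (86.99%) were intergenic, against 51.3% of all optimal summits and 40.4% of the open sequence. The replicates' own lists gave 86.3% ± 1.07 (SD, n = 2). These comparisons are not like for like. The whole list holds 196 summits at convergent ends that overlap, of which 0 were intergenic. Of the open sequence, 4.58 Mb lay upstream of the ends. With overlapping facing ends not counted as pairs, 48.4% of 442 summits were intergenic. Of the 246 summits, another 9 were in 3' UTRs, 6 in introns, 3 in coding exons, 2 in 5' UTRs and 12 in exons of non-coding genes. Within 250 bp of a pseudogene or another non-coding RNA gene lay 35 summits (14.2%), against 6.56% of the open sequence. They lay near ncRNA genes in 17 cases, pseudogenes in 15, miRNA genes in 3 and lincRNA genes in 2, some near more than 1 kind. Farther away than 250 bp lay 211 of the 246 summits, and 1579 of the 2051 optimal summits. Such genes were thus nearby more often in the whole list.

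The strongest summit lay 285 bp past Y48G1C.8 (WBGene00021681, I:95985-96392). It had signal 297.6 and ranked 14 in the optimal list, 8 in replicate 1 and 26 in replicate 2. The next, with signal 217.8, lay 271 bp past the F-box gene fbxa-216 (I:11903349-11903812) and ranked 36 in replicate 1 and 67 in replicate 2. The third, with signal 198.4, was at -136 bp, inside the end of ceh-8 (I:8245409-8245872), a homeobox gene, in its 3' UTR and beside the ncRNA ZK265.11. These ranked far up in both replicates, although 4 of the 246 summits were among the 100 strongest of the 2051. Small RNA genes had 61 of 569 summits there, convergent pairs 21 of 377, 5' ends 9 of 656 and summits far from both ends 5 of 203.

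At dpy-21 the summit lay 225 bp past the gene (V:17935960-17936195) with signal 183.0. It ranked 51 in replicate 1 and 144 in replicate 2. At tra-1 it lay 181 bp past the gene (III:11170670-11170844) with signal 180.8, ranking 76 in replicate 1 and 189 in replicate 2; a pseudogene lay within 250 bp. At snrp-200 it was intergenic with signal 168.5, ranking 151 in replicate 1 and 103 in replicate 2. Past spr-5, an LSD1-type histone demethylase, the signal was 167.9, and the ranks were 72 in replicate 1 and 332 in replicate 2. Past daf-25, needed to bring guanylate cyclases to cilia, the signal was 159.7, and the ranks were 376 in replicate 1 and 131 in replicate 2. All 5 stood in the top 2051 of both replicates, at ranks that differed between them.

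Of the 25 strongest, the other genes were Y52B11A.10, nipa-1, Y82E9BR.18, lit-1, F40E3.3, the cyclophilin gene cyn-2, the dynactin subunit gene dnc-6, Y57A10A.8, usp-50, the afadin gene afd-1, alh-3, phf-15, the kinase gene kin-4, the HMG box gene hmg-1.1, ZC155.4, F09G2.2 and hpo-11. Their signals ran from 195.1 at Y52B11A.10 to 117.8 at hpo-11. All but hmg-1.1 were matched in both replicates' top lists within 200 bp. At hmg-1.1 the stronger summit had signal 121.8 and no replicate 1 summit within 200 bp, while the weaker one, 353 bp past the gene with signal 113.7, ranked 421 in replicate 1 and 693 in replicate 2.

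At 17 gene ends there were 2 summits, spaced 200 to 246 bp apart with a median of 207 bp. The 5 with the highest signal were Y48G1C.8 (297.6 and 104.6), fbxa-216 (217.8 and 86.99), Y52B11A.10 (195.1 and 73.8), Y82E9BR.18 (152.1 and 78.2) and lit-1 (148.2 and 96.3). The same spacing held over the whole optimal list, where 150 of the 157 neighbouring summits less than 500 bp apart were 150 to 250 bp apart and the smallest gap was 199 bp.

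Over all 246 summits the median signal was 76.2 (quartiles 67.4 and 93.5, range 60.8 to 297.6). It was 88.96 for the 181 summits at convergent pairs with separate ends, 79.5 for the 196 at pairs with overlapping ends, 76.6 for the 656 at 5' ends and 75.8 for the 203 far from both ends. Small RNA genes had the highest median, 113.8 over 569 summits. At 3' ends outside convergent pairs the signal was thus at the level of promoters and below that of separate convergent ends, within 1 list.

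**Figure D2:**
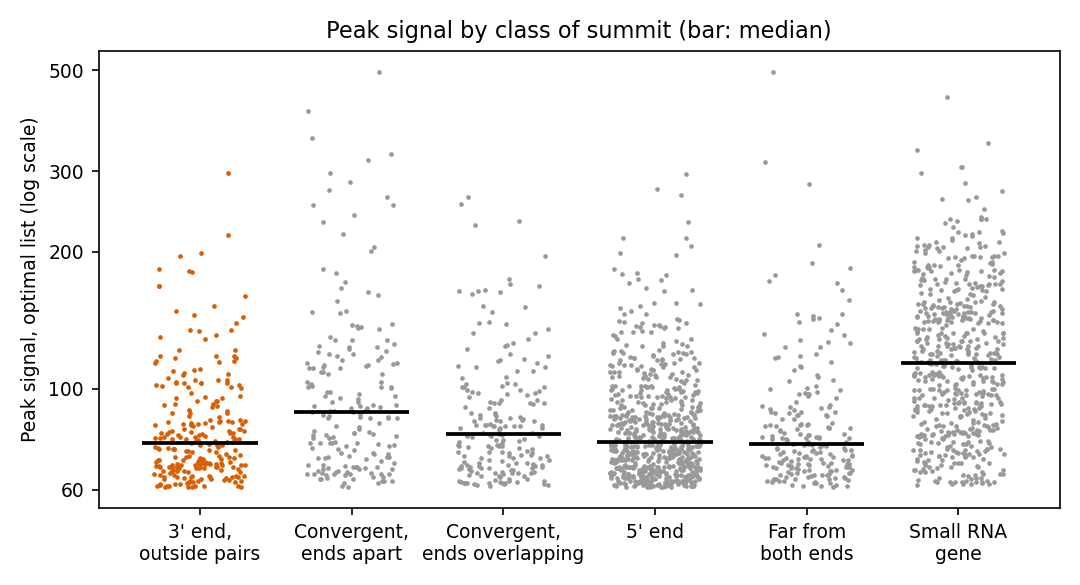
Signal of each optimal summit (y axis, log scale) by class (x axis); points are summits and bars are medians. The 3' end summits have a median of 76.2, against 88.96 at convergent pairs with separate ends and 113.8 at small RNA genes.

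In both replicates' top 2051 stood 133 of the 246 summits (54.1%, interval 47.6 to 60.4%), against 66.8% of all optimal summits. By class the share was 66.8% at convergent pairs, 58.1% at 5' ends, 54.7% far from both ends and 86.6% at small RNA genes. A replicate peak could match more than 1 summit within 200 bp: 8 of the 246 shared a top peak of replicate 1 and 14 one of replicate 2. With each replicate peak matched to at most 1 summit, 125 of the 246 (50.8%) were in both top lists, against 63.7% of all optimal summits. Another 54 were in the top list of replicate 1 alone, 49 in that of replicate 2 alone and 10 in neither. At any rank, 237 had a match within 200 bp in both lists, with the replicates' summits a median of 40 bp apart. The share in both top lists rose with the signal, which comes from the same 2 replicates combined, so some rise is built in. It was 21.5% of 93 summits below a signal of 70, 60.5% of 86 from 70 to 90, 88.6% of 44 from 90 to 120 and 95.7% of 23 at 120 or more. Summits of convergent pairs gave 28.7%, 61.8%, 94.0% and 98.6% in the same bands. Over the 237 matched summits the ranks in the replicates had a Spearman correlation of 0.21, given as a description of summits drawn from 2 libraries. These summits had passed a cut on the signal of both libraries combined, which narrows the range. The value therefore does not measure how well the replicates agree.

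**Figure D3:**
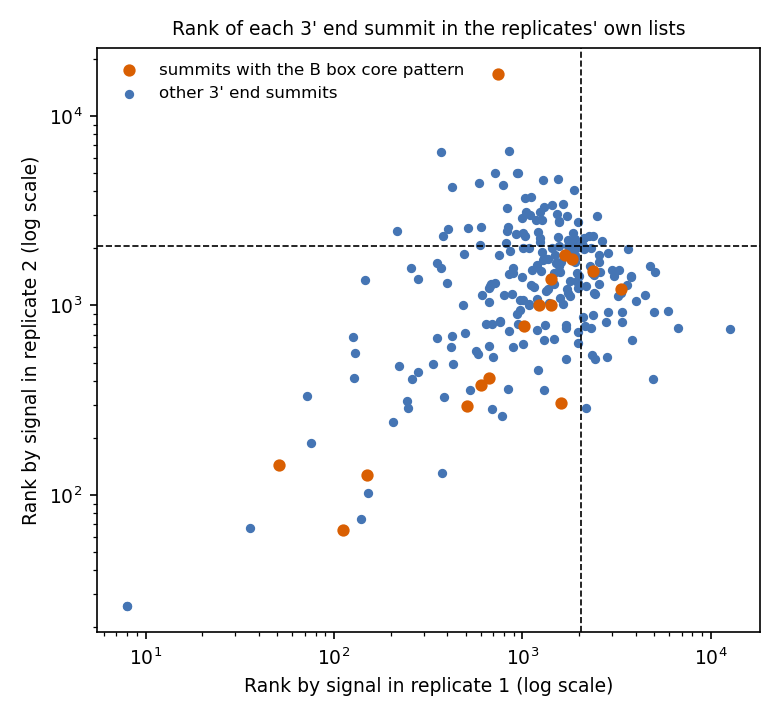
Rank by signal of each 3' end summit in replicate 1 (x axis) and replicate 2 (y axis), log scales; dashed lines mark rank 2051 and orange points the summits with the B box core. In both top lists, at the lower left of the lines, stand 133 of the 246.

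Few of the 3' ends outside convergent pairs held a summit. Of the 12642 open ends, the protein-coding 3' ends in no convergent pair with at least 1 base where a summit could meet the rule, 229 had one (1.81%, interval 1.59 to 2.06%). The replicates' own lists gave 1.78% ± 0.185 (SD, n = 2). Of 1843 open ends with a facing neighbour farther away than the limit for pairs, 53 had a summit (2.88%). Of 9717 with a same-strand neighbour 168 had one (1.73%), and of 1074 inside another gene 8 did (0.745%). Per Mb of open sequence past the ends, facing neighbours had 66.0 summits, same-strand neighbours 62.6 and ends inside another gene 26.4, so the first 2 settings lay closer together on this scale. For same-strand neighbours the share was 0.646% of 5105 ends where the next gene began within 1 kb, 2.57% of 1750 from 1 to 2 kb, 2.65% of 1773 from 2 to 5 kb and 3.95% of 1089 beyond 5 kb. A short gap leaves little open sequence past the end. Per Mb of open sequence on both sides of the ends, the same bands held 17.004, 30.6, 29.8 and 45.8 summits. Few summits lay before the ends, so this scale does not correct for the gap. A scale past the ends alone was not computed by gap. For facing neighbours the share was 2.43% from 1 to 2 kb, 3.20% from 2 to 5 kb and 3.14% beyond.

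Facing genes sometimes had a summit past each end, although more than 1000 bp apart. Of the 1843 open ends with a facing neighbour, 53 had a summit. How many facing pairs were open at both ends was not counted, so the pairs below have no share beside them. There were 7 such pairs, with 1397 to 5224 bp between their ends: daf-25 and mbtr-1, dnc-6 and Y54E10A.10, tbc-17 and snrp-200, Y48E1C.2 and Y48E1C.4, cku-70 and tra-1, prdx-6 and gtf-2H1, and usp-50 and dpy-21. Between usp-50 and dpy-21, whose ends are 2048 bp apart, the summit of usp-50 had signal 134.3 and that of dpy-21 183.0. Between cku-70, the Ku70 gene of DNA end joining, and tra-1, 2073 bp apart, the summit of cku-70 had signal 102.2, and it had no match in replicate 2 within 200 bp. The summit of mbtr-1 ranked 2581 in replicate 2. Those of prdx-6 and gtf-2H1 ranked 4463 and 2772 in replicate 1. All of these were outside the top list of that replicate.

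The 229 genes were longer and stood farther from the next gene than those of the 12085 open ends with no optimal summit within 500 bp. Their median length was 3498 bp, against 1985 bp, their median exon number 8, against 6, and the median gap to the next gene 2404 bp, against 1310.5 bp. A longer gap leaves more sequence open to the rule, and its part in the difference was not tested. An optimal summit also stood within 500 bp of the gene's own 5' end in 34 of the 229 (14.8%, interval 10.5 to 20.1%), against 432 of 12085 (3.57%). On the autosomes alone these shares were 14.5% and 4.11%.

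The chromosomes differed widely. Per Mb of open sequence chromosome I held 62.2 summits, III 62.0, II 34.5, IV 29.2, V 12.7 and X 1.44. Of the open ends, 62 of 1731 on I (3.58%) and 54 of 1562 on III (3.46%) had a summit. So did 45 of 2174 on II (2.07%), 38 of 2103 on IV (1.81%), 28 of 3247 on V (0.862%) and 2 of 1825 on X (0.110%). Each replicate's own list held 1 summit on X, 0.419% ± 0.0395 of its 3' end summits (SD, n = 2), against 10.9% of all optimal summits. The X summits of the optimal list lay 297 bp past idpp-9 (signal 77.7), near the ncRNAs T22B2.12 and T22B2.9, and at -31 bp, inside the end of epn-1, the epsin gene (signal 65.98), in its 3' UTR. By class, X held 0 of 377 summits at convergent pairs, 0.457% of those at 5' ends, 12.8% of those far from both ends and 33.7% of those at small RNA genes.

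**Figure D4:**
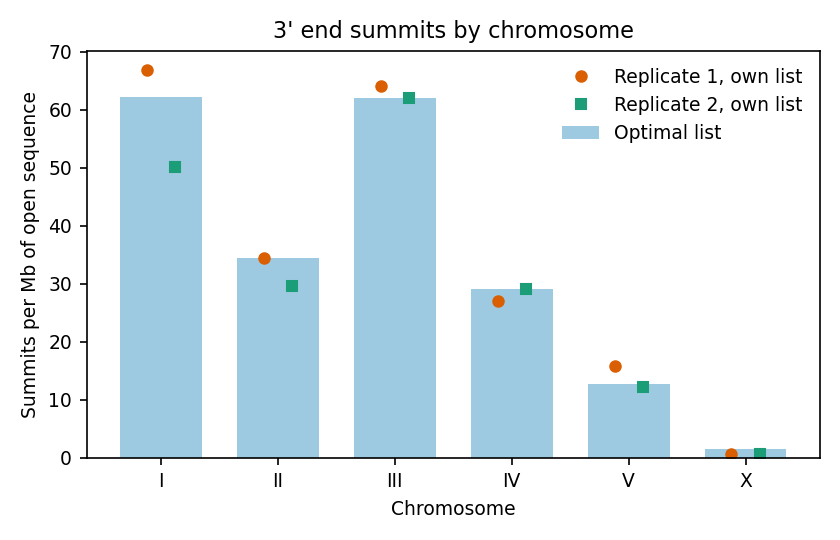
Summits per Mb of open sequence (y axis) on each chromosome (x axis); bars are the optimal list and points each replicate's own list. I and III stand highest at 62.2 and 62.0 per Mb, and X lowest at 1.44.

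Of the 20 gene lists, 14 held at least 1 end with a summit, and no list held more than 6. Against 1.81% of all open ends, the ribosomal protein genes gave 5 of 27 (18.5%, interval 6.30 to 38.1%), with 6 in replicate 1 and 3 in replicate 2. Past rpl-21 the signal was 102.8, with rank 663 in replicate 1 and 608 in replicate 2. Past rpl-9 it was 84.5 (ranks 934 and 898) and past rps-6 79.6 (1086 and 2011). Oocyte, eggshell and maternal regulator genes gave 5 of 31 (16.1%), with 4 in replicate 1 and 6 in replicate 2. They included puf-3, of the Pumilio family of RNA-binding proteins (96.0), cgh-1, a DDX6-type helicase (85.4), and car-1, its partner in oocyte granules (68.5). The 3' end of puf-3 lies inside another gene, and its summit was in a coding exon. The ranks of puf-3 were 612 in replicate 1 and 1129 in replicate 2, and cgh-1 ranked 2164 and 775, so that cgh-1 missed the top list of replicate 1. Germ granule and Argonaute genes gave 5 of 34 (14.7%), with 3 in replicate 1 and 4 in replicate 2. They included the Argonaute genes csr-1 (85.5) and wago-4 (80.9) and the P granule gene pgl-1 (76.4). The 3' end of csr-1 lies inside another gene, and its summit was in an intron. Replicate 1 ranked csr-1 795, wago-4 378 and pgl-1 1003, while replicate 2 ranked them 1134, 2337 and 2409, so that csr-1 alone of these was in both top lists.

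Splicing genes gave 4 of 43 (9.30%), with 3 in replicate 1 and 6 in replicate 2, among them snrp-200, sftb-2 (80.5) and cdc-5L (74.3). DNA replication and cell division genes gave 6 of 85 (7.06%), with 8 in replicate 1 and 5 in replicate 2, among them the topoisomerase gene top-2 (104.5), pole-2 of DNA polymerase epsilon (78.4) and the Aurora kinase gene air-1 (75.4). Meiotic genes gave 2 of 38 (5.26%), with 5 in replicate 1 and 2 in replicate 2, the crossover genes msh-5 (101.2) and cosa-1 (61.5). At cosa-1 there was no replicate 1 summit within 200 bp. Its 3' end lies inside another gene, and its summit was in an intron. Chaperone genes gave 3 of 57 (5.26%), with 4 in replicate 1 and 2 in replicate 2: cyn-2, pdi-3 (88.4) and fkb-8 (68.96). Each of 7 lists held 1: dpy-21 of 24 cohesin, condensin and dosage compensation genes, pas-6 of 15 proteasome genes, act-2 of 27 muscle genes, his-58 of 35 histone genes, eef-2 of 51 translation genes, spe-48 of 63 sperm genes and fbxa-216 of 328 F-box and MATH/BTB genes. The proteasome list had 3 in replicate 1 and 0 in replicate 2. In the optimal list no summit stood at 991 chemoreceptor genes (upper limit 0.372%), 218 intestine genes (1.68%), 111 cuticle collagen genes (3.27%), 87 neuron genes (4.15%), 22 respiration genes (15.4%) or 12 genes of 3' end processing (26.5%), although replicate 1 had 1 of the last. For neurons, collagens, respiration and 3' end processing these limits include the 1.81% of all open ends. With counts of 6 or fewer, the order among the lists above 1.81% is not resolved. The peak lists hold no expression values, so how active these genes were in the animals was not measured.

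**Figure D5:**
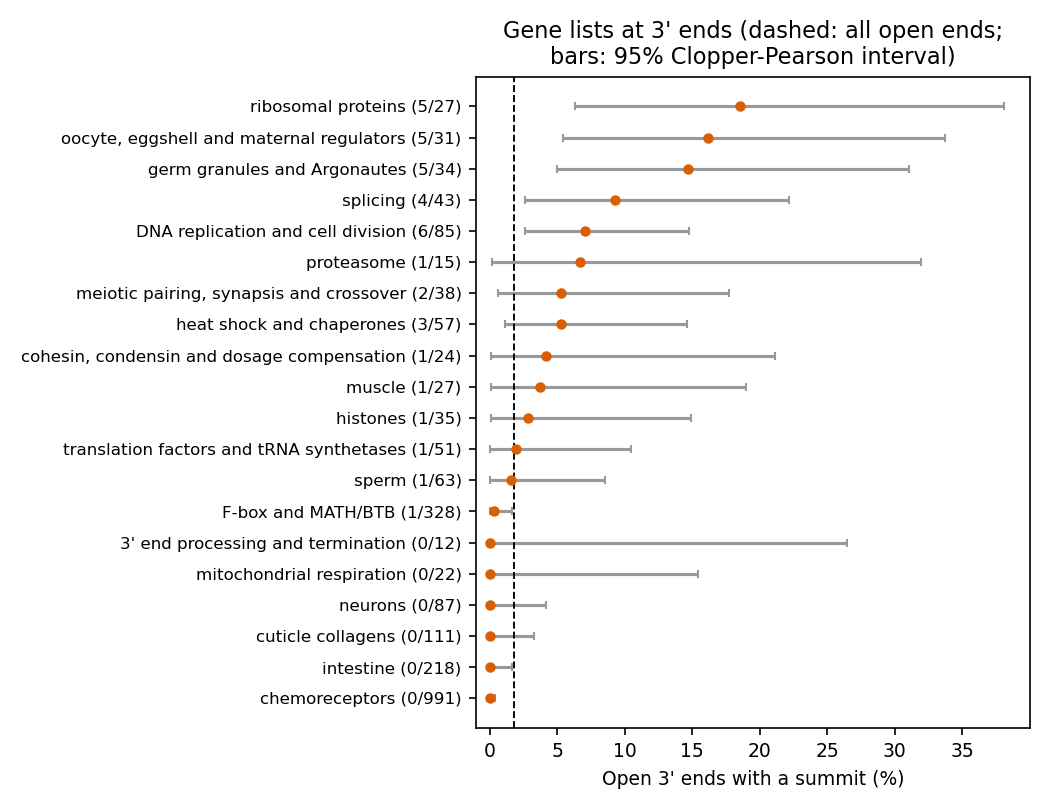
Share of open 3' ends with a summit (x axis, percent) in each gene list (y axis, with counts); bars are 95% Clopper-Pearson intervals and the dashed line is 1.81%, all open ends. Ribosomal protein genes stand highest at 18.5%, and 6 lists stand at 0.

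Within 100 bp of the summits the median GC content was 35.8%, against 33.3% at 7550 open ends with no optimal summit, taken the same median distance past the end, and 38.3% over all optimal summits. A run of 8 T on either strand, as printed for phf-15, was found at 93 of 246 summits (37.8%, interval 31.7 to 44.2%), against 24.8% of those ends and 20.9% of all optimal summits. The replicates' own lists gave 35.5% and 32.1%. On the strand of the gene T runs stood at 21.1% of summits, against 14.2%, and A runs at 20.3%, against 13.0% of the other ends. CCGCCC or CCCGCC was found at 11.4%, against 5.58%, CACGTG at 6.91%, against 2.97%, and GAGAGA at 13.4%, against 8.83%. Over all optimal summits CCGCCC or CCCGCC stood at 11.99%, GAGAGA at 14.8% and CACGTG at 3.75%, so the first 2 were as frequent in the whole list. AATAAA, the polyadenylation signal, was found at 40.2%, against 42.1%, and in the last 50 bp of the gene in 43.2% of the 229 genes, against 46.9%. TATAAA stood at 17.1%, against 23.9%, but at 23.4% in replicate 1 and 20.1% in replicate 2. TGANTCA stood at 2.85%, against 5.27%, and at 3.52% and 5.36% in the replicates' own lists, so these gaps were smaller or absent in the replicates. GATAAG stood at 5.28%, against 6.46%. A match says that the letters are there, not that a factor binds.

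The B box core GTTCGANNC was looked for after the summit sequences had been read, as 1 of 5 patterns tried, so its share is a description. It was found at 16 of 246 summits (6.50%, interval 3.76 to 10.3%), against 99 of 7550 other ends (1.31%), and at 5.08% and 7.14% in the replicates' own lists. Over all optimal summits it stood at 345 of 2051 (16.8%), so it was more frequent in the whole list. It was found at 50.1% of summits at small RNA genes, 13.8% far from both gene ends, 2.39% at convergent pairs and 1.07% at 5' ends. Annotated tRNA genes within 250 bp had been left out, but 3 of the 16 lay within 250 bp of RefSeq tRNA pseudogenes: nipa-1 beside Y53G8B.t9, ubc-1 beside C35B1.t1 and rog-1 beside F54D12.t2. Of the 7550 other ends, 4 lay that near to one. All 16 were past the 3' end, 13 of 16 were in both top lists, and their median signal was 88.1, against 75.5 for the other 230. Without them the share in both top lists was 52.2% and the share past the end 94.8%.

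The authors' longer list of the pooled replicates, which holds background too, had 18314 entries. The position past the gene was sharpest among its strongest entries. Past the end lay 96.7% of the 3' end summits ranked 1 to 500, 94.9% of those from there to 2051, 86.5% from 2052 to 5000, 67.6% from 5001 to 10000 and 59.4% beyond. The share on X in the same bands was 0%, 0.926%, 1.75%, 5.73% and 8.83%. The first 2 bands held 30 and 216 3' end summits and ended at signal 60.8, the lowest of the optimal list. They thus show the 246 summits again and add no separate evidence. Of the 8.45 Mb of open sequence, 3.87 Mb lay past the ends. Of the 12085 open ends with no optimal summit within 500 bp, 1457 (12.1%) had an entry of the longer list that met the rule, 13.2% on the autosomes and 5.55% on X.

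Just inside the 500 bp limit stood the summits of usp-50 (500 bp past, signal 134.3), alh-6 (at -492 bp, inside the gene, 67.97) and ttr-54 (491 bp past, 69.0). Just outside it were those of ttll-4 (506 bp, 64.8), WBGene00020828 on X (509 bp, 172.4) and lurp-4 (511 bp, 68.4). The gene of the tagged protein, him-1 (I:4951571-4957667, minus strand), had no such summit; its nearest optimal summit lay 2130 bp past its 3' end, with signal 100.9.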

How the data were processed

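Peaks of 2 libraries of 1 group were used, as lists on ce11. The deposited file lists record that the authors' peak calls were made with a control, 1 list per replicate and 1 from both alignments combined, and that the irreproducible discovery rate (IDR) reduced the combined list to an optimal list. The aligner and peak caller were not given in the sources used here. For every peak the authors give a signal, a deposited q-value as −log10 (not used in any comparison) and a summit offset. Signal grows with depth, so it was compared within a list only. The ce10 lists were not used.

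Summits were assigned with Ensembl release 115 genes (19973 protein-coding) in the order small RNA gene, 5' end, convergent pair, 3' end, far from both. Genes lying inside another did not separate neighbours, and overlapping facing ends counted as pairs (1598 of 3403). The member count had been looked at under 4 readings of the pair rule before this one was kept. Sequence and tRNA pseudogenes came from RefSeq on WBcel235. Replicate values use each replicate's 2051 strongest peaks; summits within 200 bp matched. Genes were named by a rule: the 25 strongest members, those on X, the 3 strongest per gene list, the 5 strongest ends with 2 summits, the 3 summits on each side of the limit, and him-1. Genes of facing pairs and those beside tRNA pseudogenes were named after their values were seen. The members and lists were chosen with earlier results of these data known. No tests were run: with 1 group and no control, shares have 95% Clopper-Pearson intervals (counting error only) and replicate SDs. Alternatives covered list length, each replicate, windows, pair rules, transcript ends and match distance. Python 3.11.15, pandas 2.3.3, numpy 2.4.6 and scipy 1.17.1 were used, and the assignment was tested on simulated data.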

Additional observations from a re-analysis of the deposited data

How the results depend on the processing

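With overlapping facing ends not counted as pairs, a reading added after seeing the data, there were 442 summits (21.6% of the list, 2.64% of open ends), with a median of 199.5 bp past the end, 48.4% intergenic, 0.452% on X, GC 35.3%, and entries of the longer list at 13.7% of ends without an optimal summit. With every gene counted as a neighbour, also added, there were 261, with 93.1% past the end, a median of 230 bp, 82.4% intergenic and 0.766% on X. With the upper 1025 peaks 87 summits remained: 8.49% of the list, 0.641% of open ends, 98.9% past the end, 87.4% in both replicates' top lists, 0% on X and GC 36.3%. A window of 250 bp gave 6.14% of the list, 1.23% of ends, 92.9% past the end, a median of 160 bp, 84.9% intergenic and 8.26% of ends in the longer list. A window of 1000 bp gave 14.5% of the list, 92.3% past the end, a median of 263 bp, 80.5% intergenic, 2.01% on X and 17.5% in the longer list. Matching within 100 bp put 44.3% in both top lists, and within 500 bp 60.2%; with each replicate peak matched to at most 1 summit, added after seeing the data, it was 50.8%. Facing ends up to 2000 bp apart gave 0.442% on X, and summits within 1 kb counted once gave 0.873% on X and GC 36.3%. Sequence windows of 50 and 250 bp gave GC 36.6% and 33.9%. Added after seeing the data, leaving out summits near other RNA genes or pseudogenes gave 13.4% of the list, 1.56% of ends, 91.5% intergenic and 0.474% on X; leaving out those with GTTCGANNC gave 13.5% and 0.870% on X.

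Leaving out 1 replicate, by using the other's own list, gave 10.9% to 12.5% of the list and 1.65% to 1.91% of ends. Past the end lay 94.9% to 95.5%, with medians of 238.5 to 245 bp, and 85.5% to 87.1% were intergenic. On X lay 0.391% to 0.446%, with GC 35.3% to 35.8%, and the longer lists gave 14.6% to 15.8%. The share in both top lists needs both replicates, so neither can be left out of it. Of the summits in replicate 1's own list 51.2% matched a top peak of replicate 2, and 57.6% the reverse. The replicate SD of that share comes from these 1-way matches. Of all these values under the alternatives, 69 moved by no more than 1 replicate SD and 49 by more; of the motif shares, 79 and 55; of the list counts, 210 stayed within 1.5 times and 50 did not. The causes were not tested. Ribosomal protein genes had 2 to 8 ends with a summit over the alternatives, oocyte genes 2 to 9 and germ granule genes 1 to 7. No paired analysis was possible because there is 1 group. Read depth is unknown, so how many weaker sites it hid cannot be given.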

Other observations

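The other 4 patterns tried when the sequences were read are given as values. GTTCGA was found within 100 bp of 28 of the 246 summits (11.4%), against 521 of 7550 other open ends (6.90%). GNTCGANNC was found at 21 (8.54%), against 255 (3.38%). CCCGCCCA was found at 1 (0.407%), against 19 (0.252%), and a loose A box pattern of tRNA genes at 8 (3.25%), against 1.58%.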
